A study of Saccharomyces cerevisiae with 48 samples.

Results

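Glycolysis converts glucose to pyruvate in the cytosol, and its enzymes are among the most abundant proteins of budding yeast. In this organism the genes are switched on together by the activator Gcr1 and its partner Gcr2, with the general factors Rap1, Abf1 and Reb1 and the helper Tye7. Several steps run in both directions, whereas phosphofructokinase and pyruvate kinase run only towards pyruvate and are replaced by other enzymes when the cell makes sugar by gluconeogenesis. The 10 genes described here encode the core steps from glucose 6-phosphate onwards, apart from glyceraldehyde 3-phosphate dehydrogenase. They were chosen by gene symbol alone among the Saccharomyces cerevisiae probe sets, and are 10 of 5449 named genes on the array. Each had 1 probe set, and all 10 passed the filter on dim probe sets.

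The samples were 48 time points of 1 continuous culture of the strain IFO0233, whose respiration and transcripts cycle together, measured on 1 Affymetrix Yeast 2.0 array each. The 11 control arrays covered 13.8 to 14.5 h after inoculation, without any addition, and the 37 phenelzine arrays covered 14.6 to 17.0 h, after phenelzine, a monoamine oxidase inhibitor, was added to the same vessel to induce a doubling of the period. The dose is not given in the sources used here. Times below are in minutes from the first phenelzine array, so the control runs from -44 to -4 min and the treated samples from 0 to 144 min, every 4 min. No second culture and no untreated culture of the later hours were used here. The time points of 1 vessel take the place of replicates, and a p-value therefore covers the scatter among them and nothing beyond this culture. Phenelzine also cannot be told apart from time in culture.

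In order of the pathway the members are PGI1 (YBR196C, chromosome II), glucose 6-phosphate isomerase; PFK1 (YGR240C, VII) and PFK2 (YMR205C, XIII), the alpha and beta subunits of phosphofructokinase; and FBA1 (YKL060C, XI), aldolase. TPI1 (YDR050C, IV) is triose phosphate isomerase, PGK1 (YCR012W, III) phosphoglycerate kinase and GPM1 (YKL152C, XI) phosphoglycerate mutase. ENO1 (YGR254W, VII) and ENO2 (YHR174W, VIII) are the enolase isozymes, and CDC19 (YAL038W, I) is the main pyruvate kinase. Names and chromosomes are those of the R64 annotation. ENO1 and ENO2 are near-identical paralogs, so signal crossing between their probe sets cannot be separated here.

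All 10 probe sets lay at the bright end of the array. By mean signal they ranked between 14 (PGK1) and 360 (PFK1) of 10928 probe sets. The 7 fission yeast glycolytic probe sets, whose genes this culture lacks, had mean log2 signals of 1.39 to 4.14, against 12.97 or more for the members. The deposited columns were not on one scale. As deposited, the members rose and fell from array to array with the other bright probe sets: their median correlated with the median of the bright probe sets, the top 5% of those tested, at r = 0.96 over the 48 arrays, and with the median of all tested probe sets at r = -0.43, as a description of arrays that share one culture and one scanner output each. PGK1 went from a deposited log2 signal of 13.14 at 72 min to 14.64 at 68 min, the array just before it, a 2.84-fold range. Of the 10 members, 8 were highest after phenelzine at 132 min and 8 were lowest at 72 min. Array number 91 is missing from the series, and the log2 ratio of the 3′ to the 5′ probe set of the added dap transcript was 1.59 ± 0.13 (SD, n = 32) before it and 2.40 ± 0.23 (SD, n = 16) after it. Values below are therefore quantile-normalised log2 signals unless stated otherwise.

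**Figure D1:**
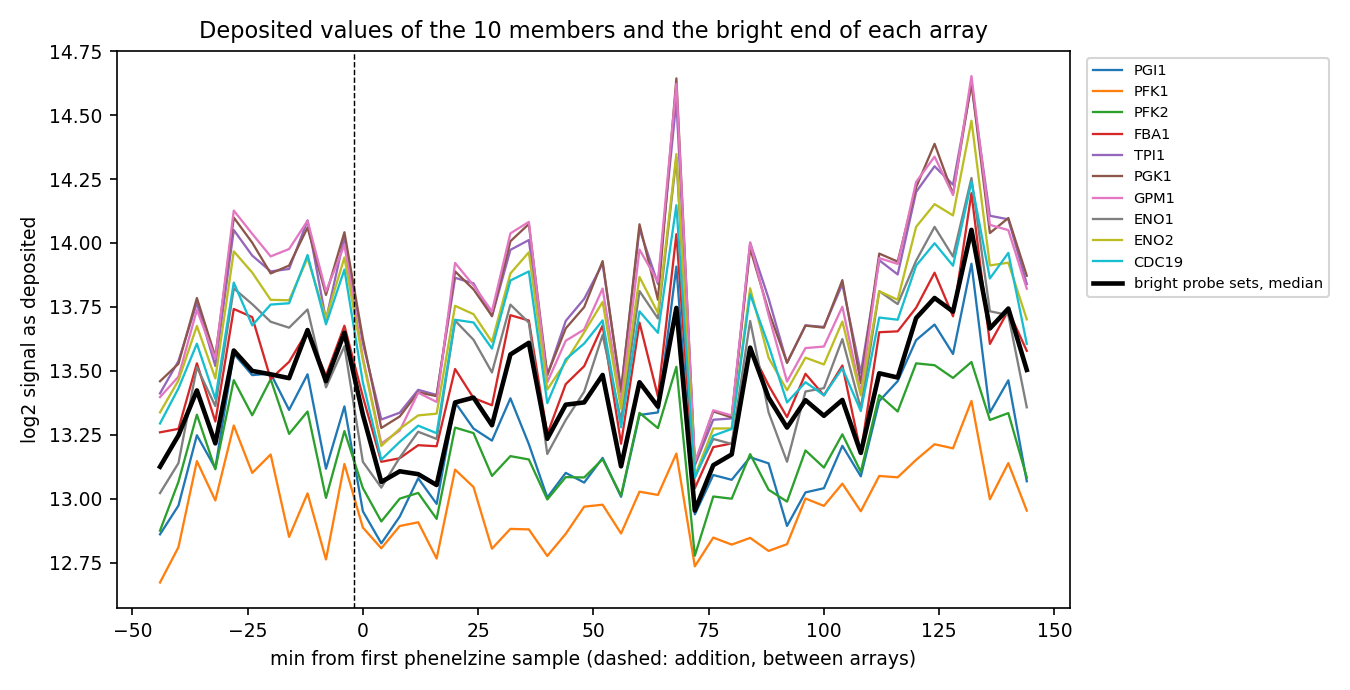
Deposited log2 signal of each of the 10 members (coloured lines) and the median of the bright probe sets (black line) against minutes from the first phenelzine array. All 10 members jump and drop with the black line, as at 68 and 72 min, where PGK1 was at 14.64 and 13.14.

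After quantile normalisation the swings of the members were small. A cosine with a 40 min period was fitted to the control and one with a 48 min period, plus a straight line in time, to the phenelzine arrays, and its amplitude is the distance from the mean to the crest on the log2 scale. The control was sampled over only 1 period of 40 min, so a rhythm there cannot be told from 1 rise and fall. For the control, rhythmic means here and below only that this cosine passed the test. In the control 7 of 10 members were rhythmic (limma F test, Benjamini-Hochberg adjusted p under 0.05 over 5372 probe sets), where 66.7% of all tested probe sets were. After phenelzine 10 of 10 members were, where 89.7% of all were. Neither share stands far from its background, and both depend on the scale: in values as deposited 3 members were called in the control and 2 after phenelzine, and with the spiked hybridisation controls as the scale 3 and 4 were. The shares of all probe sets called on those scales are not given here. The median amplitude of the members was 0.08 in the control and 0.07 after phenelzine, against 0.21 and 0.23 over all tested genes. Genes of cytosolic ribosomal proteins, another bright group, had medians of 0.11 and 0.14, and all bright genes 0.08 and 0.10. The members' range over a cycle had a median of 0.20 in the control and 0.20, 0.21 and 0.22 in the windows of 0 to 44, 48 to 92 and 96 to 140 min, against 0.59, 0.69, 0.71 and 0.70 for the median of all tested probe sets. Other scales gave wider ranges, and with some the members exceeded that median. As deposited the members had 0.65, 0.71, 1.16 and 0.96 against 0.92, 1.104, 1.08 and 1.05 for all. Median-centred they had 0.97, 1.31, 1.94 and 1.53 against 0.66, 0.78, 0.86 and 0.84, and on the spiked controls 0.77, 0.85, 1.51 and 1.41 against 0.91, 1.1, 0.92 and 0.89. Whether the members swing less than other genes therefore depends on the scale.

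**Figure D2:**
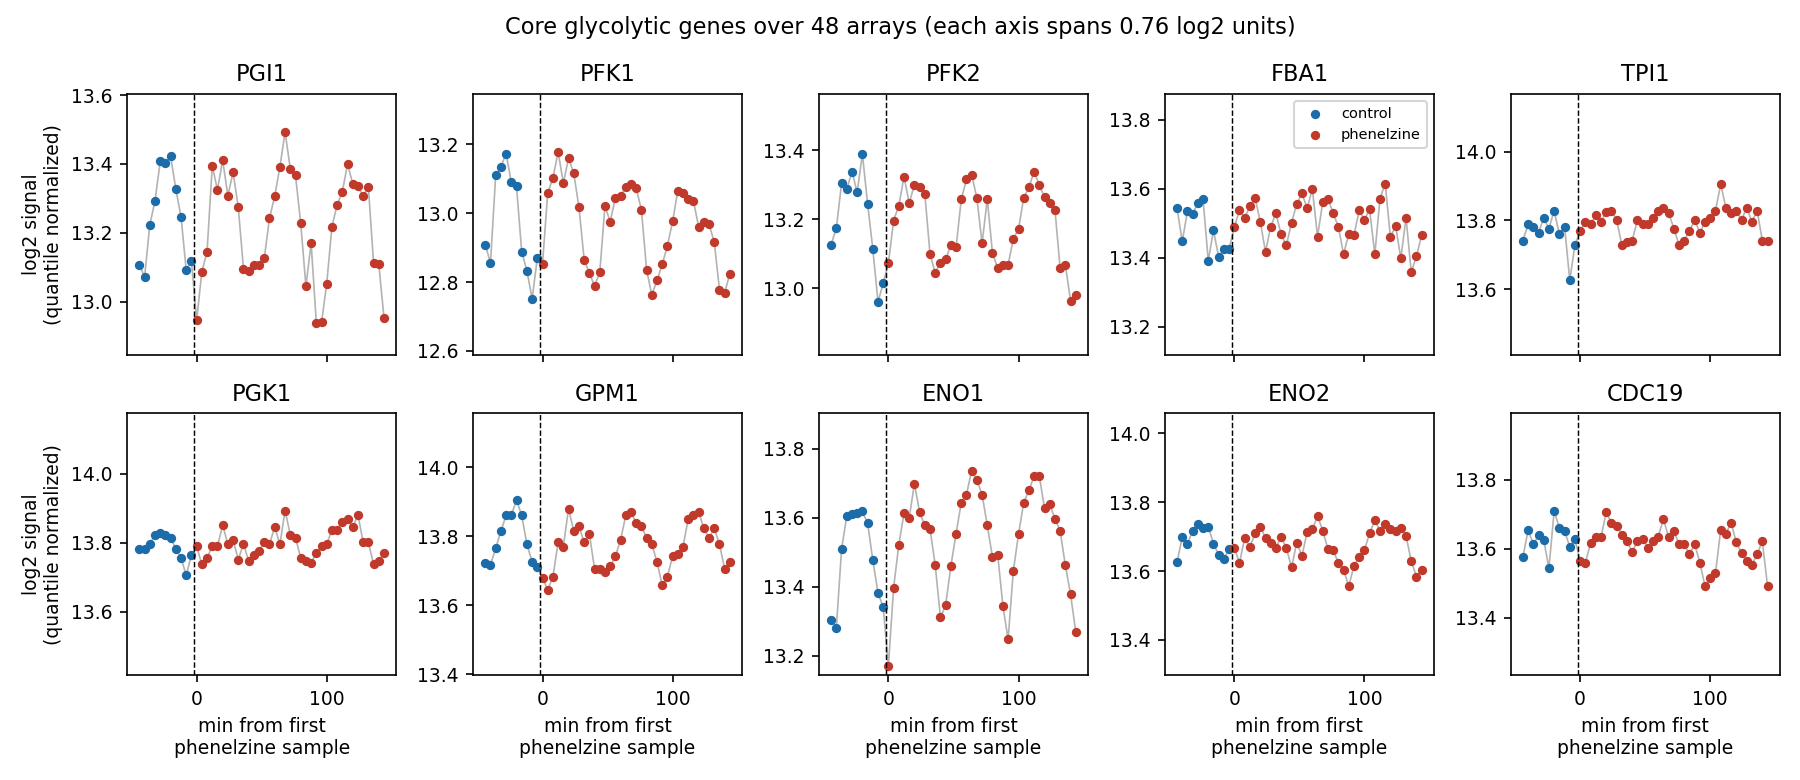
Quantile-normalised log2 signal of each member (points, 1 per array) against minutes from the first phenelzine array, with control arrays in blue, phenelzine arrays in red and a dashed line at the addition. PGI1, PFK1, PFK2 and ENO1 swing widely around 20, 66 and 112 min, GPM1 less, and the other 5 members stay near their mean.

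Glucose 6-phosphate isomerase opens the pathway and had the widest rhythm of the 10 after phenelzine. PGI1 was between 13.07 (-40 min) and 13.42 (-20 min) in the control, with a median of 13.25, and between 12.94 (92 min) and 13.49 (68 min) after phenelzine, with a median of 13.24. The 37 phenelzine arrays covered a wider span than the 11 control arrays, 0.55 against 0.35, and reached beyond it at both ends. Its amplitude was 0.17 ± 0.017 (SE) in the control (limma, adjusted p = 2.2e-05) and 0.19 ± 0.016 after phenelzine (adjusted p = 8.5e-13), a crest 1.30-fold above the trough. PGI1 was called under all 8 alternative settings in the control and all 15 after phenelzine.

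The phosphofructokinase subunits, which catalyse the committed step, kept close company. PFK1 lay between 12.75 (-8 min) and 13.17 (-28 min) in the control, median 12.91, and between 12.76 (84 min) and 13.18 (12 min) after phenelzine, median 12.98. PFK2 ran from 12.96 (-8 min) to 13.39 (-20 min), median 13.24, and from 12.96 (140 min) to 13.34 (112 min), median 13.20. For both subunits the 2 groups overlapped over almost their whole range. The amplitude of PFK1 was 0.19 ± 0.024 (SE) in the control and 0.14 ± 0.013 after phenelzine, and that of PFK2 0.16 ± 0.028 and 0.13 ± 0.013 (limma, highest adjusted p = 0.0012). In values as deposited the 48 min rhythm was not called for either (adjusted p = 0.22 for PFK1 and 0.077 for PFK2), nor with spiked hybridisation controls as the scale. The control rhythms of both subunits were lost under the same pair of settings (adjusted p of 0.10 to 0.19).

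Aldolase and triose phosphate isomerase, the middle of the pathway, were nearly flat after quantile normalisation. FBA1 had a control range of 13.39 to 13.57 with a median of 13.48, and a range of 13.36 to 13.62 after phenelzine with a median of 13.50. TPI1 had a control range of 13.63 to 13.83 with a median of 13.78, and a range of 13.73 to 13.91 after phenelzine with a median of 13.80. The groups of both genes overlapped. FBA1 had amplitudes of 0.06 ± 0.023 (SE) and 0.04 ± 0.013, and TPI1 of 0.04 ± 0.019 and 0.04 ± 0.008. Neither passed the test in the control (limma, adjusted p = 0.074 and 0.14), and both passed it after phenelzine (adjusted p = 0.010 and 0.00041). The calls after phenelzine were lost as deposited (adjusted p = 0.35 for FBA1 and 0.25 for TPI1), on the spiked controls (0.19 and 0.15) and on the bright probe sets (0.089 and 0.052), and that of FBA1 also with a 44 min period (0.16). In the control TPI1 was called when median-centred (0.027) and on the bright probe sets (0.0077). Median-centred, the fitted amplitudes after phenelzine were wider, at 0.25 for FBA1 and 0.29 for TPI1. The flatness of both genes therefore depends on the scale.

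In the lower part of the pathway, after quantile normalisation, phosphoglycerate kinase stayed flat and phosphoglycerate mutase moved more. PGK1 lay between 13.71 and 13.83 in the control, median 13.78, and between 13.74 and 13.89 after phenelzine, median 13.80. Its amplitude was 0.04 ± 0.013 (SE) and 0.05 ± 0.007 (limma, adjusted p = 0.027 and 2.7e-06). Both calls of PGK1 were lost as deposited (adjusted p = 0.11 and 0.20) and on the spiked controls (0.068 and 0.13), and the control call also with eBayes without a trend (0.23). GPM1 lay between 13.71 (-4 min) and 13.91 (-20 min) in the control, median 13.78, and between 13.64 (4 min) and 13.88 (20 min) after phenelzine, median 13.78. The 2 groups of each gene covered much the same values. The amplitude of GPM1 was 0.09 ± 0.012 (SE) and 0.08 ± 0.007 (limma, adjusted p = 0.00017 and 2.2e-12). It was called under all 8 control alternatives and 14 of 15 after phenelzine, the exception being the values as deposited (adjusted p = 0.051). Median-centred, the fitted amplitudes after phenelzine were 0.30 for PGK1 and 0.35 for GPM1.

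The enolase pair differed. ENO1, the isozyme known for a role in gluconeogenic growth, lay between 13.28 (-40 min) and 13.62 (-20 min) in the control, median 13.51, and between 13.17 (0 min) and 13.74 (64 min) after phenelzine, median 13.57. ENO2, the isozyme induced by glucose, lay between 13.63 and 13.74, median 13.68, and between 13.56 (88 min) and 13.76 (64 min), median 13.68. After quantile normalisation ENO1 moved clearly with the cycle while ENO2 stayed within a narrow band. The amplitude of ENO1 was 0.17 ± 0.020 (SE) in the control and 0.18 ± 0.016 after phenelzine (limma, adjusted p = 0.00011 and 3.4e-12), a crest 1.29-fold above the trough, and ENO1 was called under every one of the 8 and 15 alternatives. That of ENO2 was 0.05 ± 0.013 and 0.05 ± 0.009 (adjusted p = 0.017 and 6.8e-06), and it was not called in 4 of the 8 control alternatives, nor after phenelzine as deposited (0.13) or on the spiked controls (0.085). Median-centred, the fitted amplitudes after phenelzine were closer, at 0.34 for ENO1 and 0.30 for ENO2.

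Pyruvate kinase, the last step, showed the least in the control. CDC19 lay between 13.54 and 13.71, median 13.63, in the control and between 13.49 (96 min) and 13.71 (20 min), median 13.62, after phenelzine. The lowest and highest control arrays were neighbours in time, at -24 and -20 min. Its amplitude was 0.02 ± 0.021 (SE) in the control (limma, adjusted p = 0.74) and 0.05 ± 0.009 after phenelzine (adjusted p = 8.7e-05). As deposited the latter was not called (adjusted p = 0.060), and median-centred the former was (0.020). The test of the difference between the rhythms, below, did not call CDC19.

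The members thus fell into a wider and a flatter set, and both groups of arrays gave the same division. The 4 with amplitudes of 0.13 or more in both groups were PGI1, PFK1, PFK2 and ENO1, GPM1 lay between, and the other 5 stayed at 0.06 or below. Centring on the bright probe sets kept PGI1, ENO1, PFK1 and PFK2 as the 4 widest after phenelzine. Median centring did not: all 10 members then had 48 min amplitudes between 0.20 (PFK1) and 0.35 (PGI1), with 0.29 for TPI1 and 0.31 for CDC19. Over the 10 members the amplitudes in the control and after phenelzine had a Spearman correlation of 0.83, as a description of genes read from the same arrays. The amplitude was also lower for brighter probe sets: Spearman with the mean signal was -0.76 in the control and -0.58 after phenelzine (n = 10 members). In the deposited values the relation ran the other way, with the range over 48 arrays wider for brighter probe sets (Spearman 0.95). The part of brightness in the order was not tested.

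**Figure D3:**
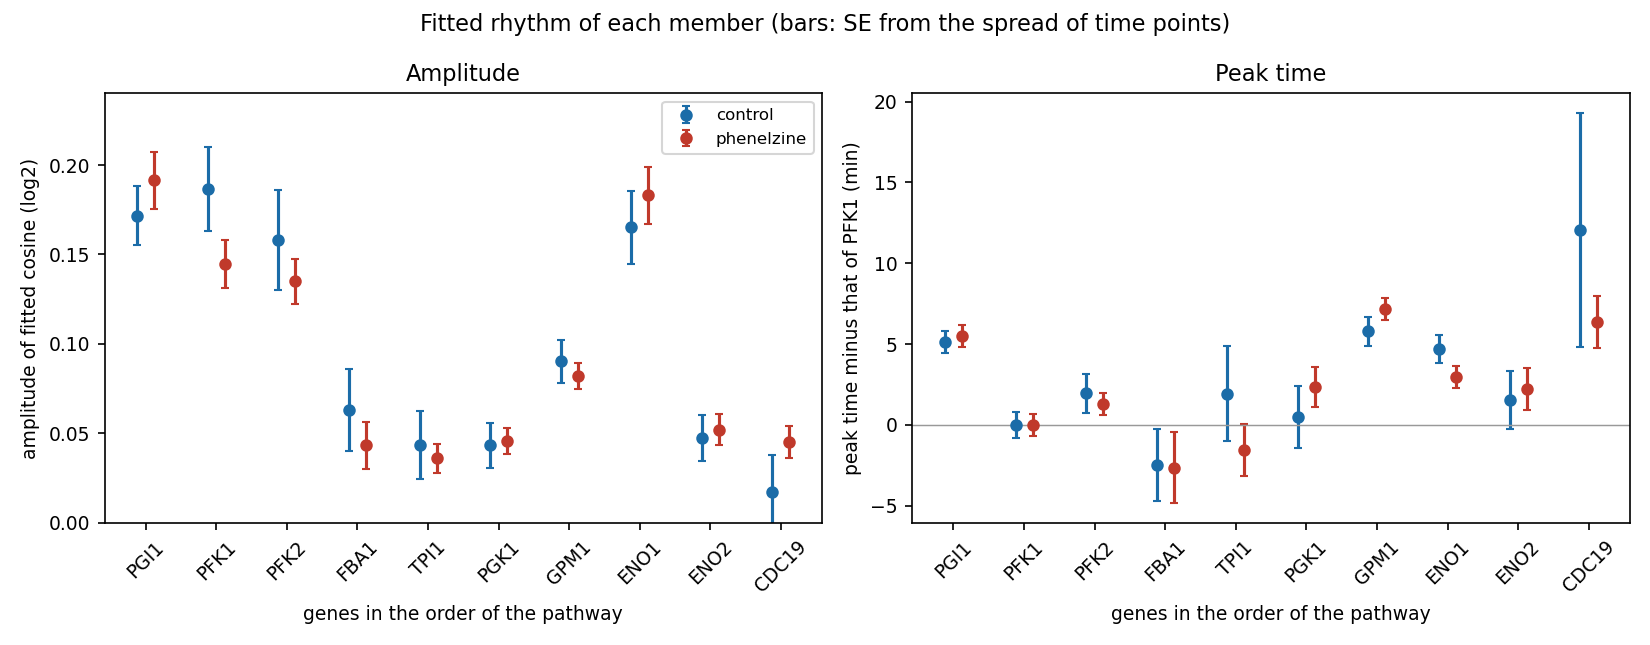
Left, the fitted amplitude (log2) of each member in pathway order, and right, its peak time minus that of PFK1 in minutes, for control (blue) and phenelzine (red), with bars of 1 SE. PGI1, PFK1, PFK2 and ENO1 stand above 0.13 in both groups, and GPM1 peaks after PFK1 in both (PFK1 minus GPM1 is -5.80 and -7.16 min).

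A ratio between members within an array does not depend on the factor by which its column was scaled, though it can still move where an array stretches its bright end. The log2 ratio of ENO1 to ENO2 had a fitted amplitude of 0.11 (95% interval 0.07 to 0.16) in the control and 0.11 (0.08 to 0.14) after phenelzine. It was lowest at -4 min (-0.35) and highest at -20 min (-0.09) in the control, and lowest at 0 min (-0.40) and highest at 112 min (0.00) after phenelzine, so the low values on both sides of the addition were neighbours. Over the 48 arrays it correlated at r = -0.01 with the distance between the bright and the overall median of the array. Only the change of this ratio is meant, since probe sets differ in brightness per transcript. Over the 45 pairs the median ratio amplitude was 0.10 in the control and 0.10 after phenelzine, so that of ENO1 to ENO2 was near the middle. The lowest were TPI1 to PGK1 in the control and PGK1 to ENO2 after phenelzine. TPI1 to PGK1, neighbouring enzymes on either side of the dehydrogenase, had an amplitude of 0.007 (-0.033 to 0.048) in the control and 0.017 (0.0004 to 0.033) after phenelzine. PGK1 to ENO2 had one of 0.016 (-0.004 to 0.035) and 0.005 (-0.021 to 0.031). Among the 45 pairs, the interval of the ratio's amplitude lay above 0 for 37 in the control and 39 after phenelzine. An amplitude cannot be negative, so a low bound just above 0 carries little weight.

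**Figure D4:**
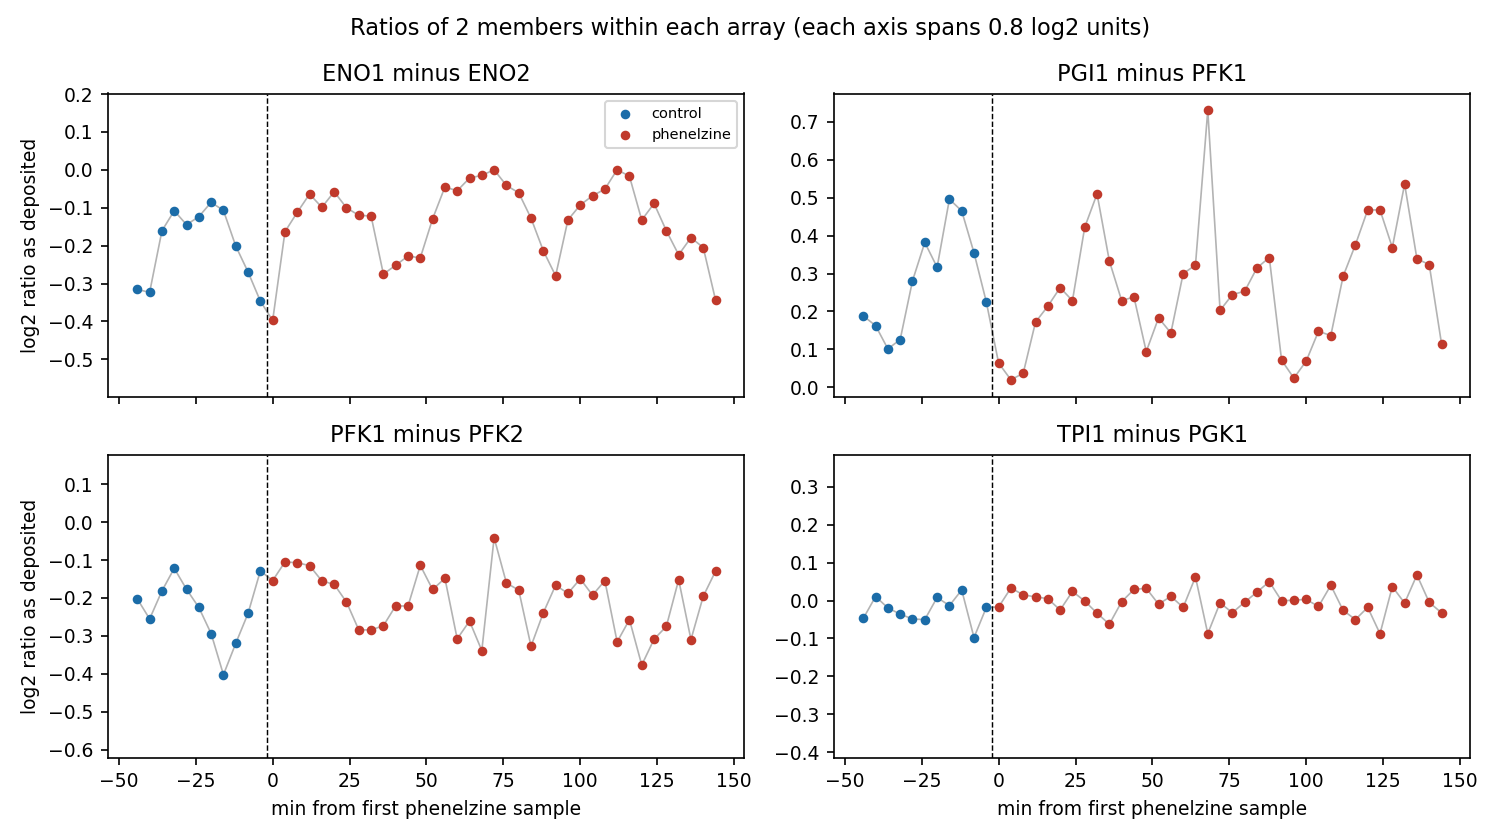
Log2 ratio of 2 members within each array, as deposited, against minutes from the first phenelzine array (control blue, phenelzine red) for 4 pairs drawn to the same span. ENO1 over ENO2 and PGI1 over PFK1 rise and fall with each cycle, PFK1 over PFK2 less regularly, and TPI1 over PGK1 stays near 0.

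The order of peak times was not that of the enzymes. After phenelzine the first fitted crests fell between 13.3 min (FBA1) and 23.1 min (GPM1), with a mean of 18.4 min, and in the control between -31.1 min (FBA1) and -16.5 min (CDC19, whose rhythm did not pass the test). The Spearman correlation of pathway step with peak time was 0.35 in the control and 0.43 after phenelzine (n = 10 members). It was 0.70 after phenelzine with arrays centred on the bright probe sets. PFK1 peaked at -28.6 ± 0.82 min (SE) in the control and 16.0 ± 0.68 min after phenelzine. PGI1, the step before it, came later, at -23.4 ± 0.67 and 21.5 ± 0.66 min. The difference between PGI1 and PFK1 was 5.14 min (95% interval 3.75 to 6.53) in the control and 5.51 min (3.92 to 7.11) after phenelzine. The size of this lag depends on the scale. After phenelzine PGI1 and PFK1 peaked at 25.1 and 18.4 min as deposited, but at 26.8 and 26.3 min when median-centred. Their within-array ratio had amplitudes of 0.18 (0.12 to 0.23) and 0.15 (0.10 to 0.21). This ratio was lowest at 4 min (0.02) and highest at 68 min (0.73), and it correlated at r = 0.83 over the 48 arrays with the distance between the bright and the overall median of the array. The ratio of PFK1 to GPM1 did so at r = -0.94, and the part of the bright end in these ratios was not tested.

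The peak times of the phosphofructokinase subunits had a difference whose interval held 0. PFK2 peaked at -26.6 ± 1.20 (SE) and 17.3 ± 0.70 min, and the difference of PFK1 from PFK2 was -1.96 min (95% interval -4.70 to 0.78) in the control and -1.30 min (-2.80 to 0.19) after phenelzine. Their amplitudes differed by 0.03 (-0.04 to 0.10) and 0.01 (-0.02 to 0.04). GPM1 peaked last of the rhythmic control members, at -22.8 ± 0.91 min, and at 23.1 ± 0.70 min after phenelzine. The peak of PFK1 minus that of GPM1 was -5.80 min (95% interval -7.60 to -4.0) and -7.16 min (-9.03 to -5.30), so PFK1 came first. After phenelzine PFK1 and GPM1 peaked at 18.4 and 28.6 min as deposited, and at 26.3 and 28.6 min when median-centred. ENO1, 1 step below GPM1, peaked at -23.9 ± 0.86 and 18.96 ± 0.68 min. GPM1 followed ENO1 by 1.11 min (-0.96 to 3.18) in the control and by 4.18 min (2.62 to 5.75) after phenelzine. Over the 45 pairs the interval of the peak time difference left out 0 for 13 in the control and 30 after phenelzine, without adjustment over pairs.

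The order of peak times was alike in both groups, with a Spearman correlation of 0.84 over the 10 members. A 3-point running mean, which assumes no period, put a local maximum of every member in each of the windows -44 to -4, 0 to 40, 44 to 84 and 88 to 140 min, at median times of -24, 20, 66 and 112 min. Both the clock times and their order depend on the scale. The peak times after phenelzine had a Spearman correlation of -0.13 with those above in deposited values and -0.07 when median-centred, and 0.68 on the bright probe sets. As deposited FBA1 moved from 13.3 to 31.4 min. In deposited values the mean fitted peak after phenelzine was 26.9 min, and with each array centred on the median of the tested probe sets it was 28 min.

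No difference in level after phenelzine passed the test. Across the 37 phenelzine and 11 control arrays 0 of 10 members differed (limma, adjusted p under 0.05), and 0.465% of all probe sets did. The differences ran from -0.03 ± 0.051 (SE) for PGI1 to 0.05 ± 0.049 for ENO1, and TPI1, at 0.03 ± 0.015, was the 1 member with an unadjusted p under 0.05. The first 11 phenelzine arrays were also set against the control arrays 44 min earlier, about 1 cycle. In that comparison 0 of 10 members were called by limma, 0 had an unadjusted p under 0.05, and 8.49% of all probe sets were called, 4.04% as higher and 4.45% as lower. The differences there ran from -0.03 ± 0.017 (GPM1) to 0.03 ± 0.026 (PFK1). With the spiked hybridisation controls as the scale 9 of the 10 were called lower, where the median of all tested probe sets also fell by 0.19. The share of all probe sets called on that scale is not given here.

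Slow changes after phenelzine were very small. A linear trend beside the rhythm was called for 4 of 10 members, where 39.8% of all probe sets were called, 20.6% upward and 19.2% downward. ENO1 rose by 0.04 ± 0.016 (SE) per hour (limma, adjusted p = 0.039), GPM1 by 0.02 ± 0.007 (0.031) and PGK1 by 0.02 ± 0.007 (0.042). CDC19 had a slope of -0.02 ± 0.009 per hour (adjusted p = 0.038). These calls rest on the scale. As deposited all 10 members had a positive slope past the threshold, of 0.12 to 0.22 per hour, where the median of all tested probe sets was 0.11. After median centring and after centring on the bright probe sets 0 were called, and without the arrays of 124 and 132 min 2 were, GPM1 and PFK1. The shares of all probe sets called under these settings are not given here.

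The rhythm itself was compared between the groups at a shared period of 44 min. The separate fits used 40 min in the control and 48 min after phenelzine, so a change in period can also enter this difference. The difference in cosine and sine terms, which takes up a change in either amplitude or timing, was called for GPM1 alone (0.07 ± 0.018, SE, limma adjusted p = 0.032), where 4.13% of all probe sets were called. At 40 min 6 members were called, but the 4.13% belongs to 44 min and the share of all probe sets at 40 min is not given here. At 48 min GPM1 was not called (0.02, adjusted p = 0.41) and ENO1 alone was (0.12, 0.014). With eBayes without a trend 0 were called (GPM1 adjusted p = 0.088), as were 0 in values as deposited, median-centred, scaled on the spiked controls or centred on the bright probe sets. Nor are the shares of all probe sets at 48 min and under these settings given here. A component of doubled period, 96 min, was not detected in any member. By limma it was called for 0 of 10, 2 members had an unadjusted p under 0.05 (PGI1, amplitude 0.04, and ENO2, 0.02), and 0% of all probe sets were called, with 414 of 5332 genes under an unadjusted p of 0.05. The phenelzine arrays span only 144 min and the fit also holds linear time, so this result cannot exclude a component of doubled period.

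**Figure D5:**
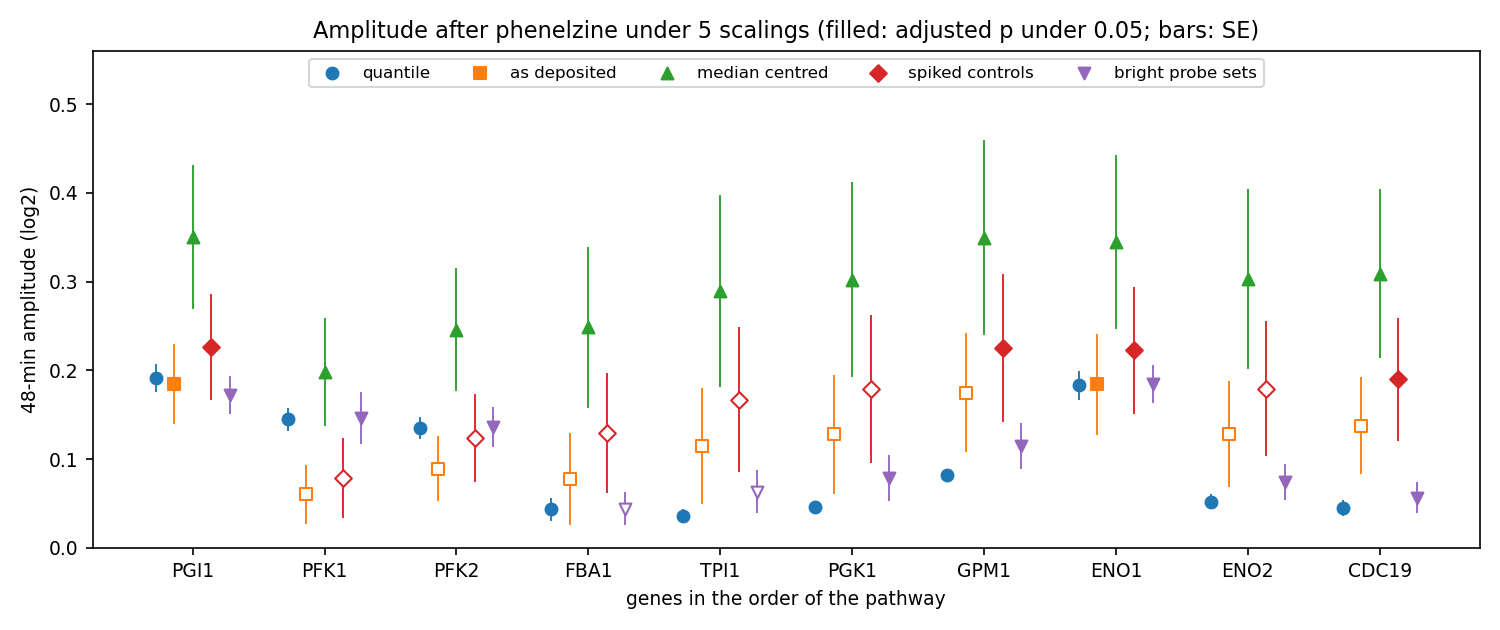
Fitted 48 min amplitude (log2) of each member after phenelzine under 5 scalings of the columns, with bars of 1 SE and filled symbols where the adjusted p was under 0.05. PGI1 and ENO1 are filled under all 5, whereas most members are open as deposited and on the spiked controls.

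Genes around the core ranged from flat to widely swinging, and no test was made of their difference from the core. Their counts stand beside the same backgrounds of 66.7% in the control and 89.7% after phenelzine, so a list called in full is near what most genes show. Of the hexose kinases and glyceraldehyde 3-phosphate dehydrogenases, 5 of 5 tested were rhythmic after phenelzine and 4 of 5 in the control. Glucokinase GLK1 had an amplitude of 0.39 and peaked at 11.5 min, hexokinase HXK1 0.27 at 15.3 min, and hexokinase HXK2, the isozyme of growth on glucose, 0.36 at 34.5 min. HXK2 thus crested after each of the 10 members. TDH1 had an amplitude of 0.21 and TDH3, the main dehydrogenase gene, one of 0.04. After quantile normalisation TDH3 was thus about as flat as TPI1 and PGK1, its neighbours in the pathway.

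Genes that set the flux through phosphofructokinase were rhythmic, 3 of 3 in both groups. PFK26, a kinase that makes fructose 2,6-bisphosphate, the activator of phosphofructokinase, had an amplitude of 0.62 after phenelzine with its peak at 11.4 min, and 0.53 in the control at -31.3 min. FBP26, which degrades it, had 0.53 at 7.6 min, and PFK27, the other kinase, 0.43 at 28.8 min. Minor isozymes of core steps also swung more widely, with 4 of 4 tested called after phenelzine and 3 of 4 in the control. GPM2, a homolog of GPM1, had an amplitude of 1.14 at 11.2 min, against 0.08 for GPM1. PYK2, the pyruvate kinase of low-glucose growth, had 0.49 at 47.5 min, against 22.3 min for CDC19.

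Gluconeogenic and glyoxylate cycle genes were rhythmic, 7 of 7 in both groups, and most crested in the opposite part of the cycle. PCK1, which makes phosphoenolpyruvate from oxaloacetate, had an amplitude of 1.88 and peaked at 42.4 min. FBP1, fructose 1,6-bisphosphatase, which runs against phosphofructokinase, had 1.09 at 44.2 min. ICL1, isocitrate lyase, and MDH2, cytosolic malate dehydrogenase, peaked at 42.3 and 40.9 min. The median peak of the 7 was 42.4 min, against 18.3 min for the core members, and in the control -4.7 min against -26.6 min for the 7 called core members. PCK1 was lower in the first phenelzine cycle than in the control (log2 difference -0.77 ± 0.11, SE, limma adjusted p = 0.0042), as were MDH2 (-0.37) and ICL1 (-0.27). The phenelzine arrays of that comparison ended at 40 min, before the fitted crests of these genes. A lower level therefore cannot be told apart there from a later crest.

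The branches off the pathway varied in timing. Of fermentation genes 7 of 8 were rhythmic after phenelzine and 4 of 8 in the control. PDC1, the main pyruvate decarboxylase, and ADH1, the main fermentative alcohol dehydrogenase, had small amplitudes of 0.10 and 0.06 with peaks at 18.5 and 14.8 min, in the same part of the cycle as the core. ADH5 had 0.59 at 47.2 min, and ADH2, which oxidises ethanol, 0.44 at 46.1 min. PDC6 and PDC5, minor decarboxylase genes, had 0.32 and 0.26. In the glycerol branch 3 of 4 genes were called after phenelzine and 4 of 4 in the control. GPP2, glycerol 3-phosphatase, had 1.05 at 16.4 min, GPD1, glycerol 3-phosphate dehydrogenase, 0.63 at 8.2 min, and GPP1 0.26 at 26.3 min. In the pentose phosphate pathway 9 of 11 genes were called after phenelzine and 8 of 11 in the control. The widest were GND2, SOL4, TKL2 and RKI1, with amplitudes of 1.75, 1.54, 1.52 and 1.15.

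All 6 regulator genes were rhythmic after phenelzine and 4 of 6 in the control. GCR1 had the widest swing of them, with an amplitude of 0.67 ± 0.047 (SE) at 15.8 ± 0.52 min after phenelzine and 0.71 ± 0.040 at -27.9 ± 0.37 min in the control. Its crest lay within the spread of the 10 members, 13.3 to 23.1 min after phenelzine and -31.1 to -16.5 min in the control. PFK1, 1 of these, crested at 16.0 and -28.6 min, and the amplitude of GCR1 was several times that of PFK1. GCR2 had amplitudes of 0.11 and 0.15, TYE7 0.21 and 0.48, and ABF1 0.27 and 0.20, after phenelzine and in the control. RAP1 and REB1 had 0.09 each after phenelzine and did not pass in the control (limma, adjusted p = 0.71 and 0.73).

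Among themselves the members correlated only moderately over the 48 arrays after quantile normalisation. The median Pearson r over 45 pairs was 0.57, from -0.06 (FBA1 and CDC19) to 0.86 (PGI1 and GPM1). In the deposited values the median was 0.92, highest for TPI1 and PGK1 at 0.99, while the members shared the swings of the bright end of each array. Median-centred the median was 0.97 and the lowest 0.93 (PFK1 and CDC19). Centred on the bright probe sets it was 0.48, from -0.39 (PFK1 and GPM1) to 0.96 (TPI1 and PGK1). How closely the members correlated therefore depends on the scale. The genes outside the group whose profile was most like the mean of the standardised member profiles were SNZ3 (r = 0.94), HMO1 (0.94), REX2 (0.93), YPR127W (0.93), VPS13 (0.93) and PHO3 (0.93). The least alike were CRC1, ADY2 and HIS5, each with r = -0.95 over 48 arrays.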

How the data were processed

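The authors deposited, for 48 arrays, linear signal intensities of 10928 probe sets. GCOS made them, per the submitters' processing notes, and its version, algorithm and target value were not given in the sources used here. How columns were scaled and centred is unknown. The number of arrays limits the precision. Gene symbols came from the array annotation and the R64 table.

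Signals under 1 were set to 1, and log2 values were quantile normalised and tested in limma 3.58.1 (R 4.3.3; lmFit, and eBayes with a mean-variance trend) with a Benjamini-Hochberg adjusted p under 0.05. The 5372 probe sets (5332 genes) with a mean above the 90th percentile of fission yeast probe sets were tested. Control rhythms used a 40 min cosine and sine, phenelzine rhythms 48 min terms with linear time, the trend the same model, the difference of rhythms 44 min terms, and the doubled period 96 min terms beside the 48 min ones. The level comparison set 37 against 11 arrays, and the first cycle comparison paired 11 arrays with those 44 min earlier. Deviations of these paired arrays from their group means correlated at 0.52 to 0.80, the pairing coming from time. Standard errors of peak times came from the fitted coefficients. The members, periods and gene lists were chosen with earlier results of these data known. The text names all 10 members, up to 4 genes of each other list with the widest amplitude past the threshold, all 6 regulators, and the 6 most and 3 least alike profiles. TDH3, PDC1 and ADH1 were named after their values were seen. TDH2, ERR1 and ERR2 had no named probe set here. The alternatives changed the scaling, the pseudocount (50), the filter, the variance model, the period or the arrays used. All tests were first tried on simulated data with known changes. Plots used matplotlib 3.10.9 (Python 3.11.15).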

Additional observations from a re-analysis of the deposited data

Results flagged for a closer look

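GPM1, phosphoglycerate mutase, had a rhythm that differed between the control and the phenelzine arrays by a test of the difference itself (0.072943 on the log2 scale, limma adjusted p = 0.032). The call was lost in the values as deposited, under the other 3 rescalings of the columns, with eBayes without a trend, and at a shared period of 48 min, where the value was 0.02. The cause was not tested.

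A signal outside the comparisons stood above the control level in the added dap transcript, whose log2 ratio of 3′ to 5′ probe sets reached 2.85 (2.84518) at 120 min, against at most 1.78 in a control array. The shift falls at the missing array number. Fitted only on the phenelzine arrays before that number, the 48 min rhythm was called for 10 of 10 members. The share of all probe sets in that fit is not given here. Over all phenelzine arrays it was 89.7%.

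The 7 fission yeast glycolytic probe sets, whose genes the culture lacks, had a median log2 signal of up to 4.28 (4.28444) at 28 min, against at most 3.91 in a control array. Every member had a mean of 12.97 or more.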

How the results depend on the processing

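The counts of members in this paragraph stand without the shares of all probe sets called under each alternative. Rhythmic members fell from 7 to 3 in the control and from 10 to 2 after phenelzine in values as deposited, and to 3 and 4 with the spiked hybridisation controls as the scale. The other 6 and 13 alternatives left both counts within 1.5 times. The members with a trend went from 4 to 10 as deposited and to 10 on the spiked controls. That count was 0 after median centring, after centring on bright probe sets, with eBayes without a trend, before the missing array number, without the first 10 phenelzine arrays and with no cosine terms, and it was 2 without the 2 brightest arrays. The first cycle comparison went from 0 to 9 members on the spiked controls. The rhythm difference went from 1 member to 0 as deposited, median-centred, on the spiked controls, on the bright probe sets and with eBayes without a trend, and to 6 at 40 min, and at 48 min the 1 call was of ENO1, not GPM1. The mean peak after phenelzine moved from 18.4 min to 23.03 with a 44 min period, 13.7 with 52 min, 26.9 as deposited and 28 median-centred. The median range per cycle, 0.20 to 0.22, became 0.65, 0.71, 1.16 and 0.96 as deposited in the control and the windows of 0 to 44, 48 to 92 and 96 to 140 min, 0.97, 1.31, 1.94 and 1.53 median-centred, and on the bright probe sets 0.34, 0.56 and 0.34 in these 3 windows. On the spiked controls it was 0.77, 0.85, 1.51 and 1.41. The causes were not tested.

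Among the signed values named in the text, those that turned were the trend of PFK1 (0.12 per hour as deposited, 0.0061 median-centred, 0.15 on the spiked controls) and of CDC19 (0.15, 0.035 and 0.18), the level of ENO1 (-0.012 on the spiked controls, -0.016 with windows of 4 arrays as a random block) and of PGI1 (0.0013 before the missing array number), and the first cycle value of PFK1 (-0.11 as deposited, -0.16 on the spiked controls). Over all members and alternatives, 656 of 800 values kept their direction and side of the threshold, 61 lost it, 22 passed it and 61 turned sign, 12 of these being called, among them the trends of FBA1 and PFK2 as deposited and on the spiked controls. With the pair of arrays 44 min apart as a replicate block the level comparison called 0 members. The later phenelzine arrays have no partner, so that fit rests on the same 11 pairs as the first cycle comparison. It is therefore no check on the comparison of 37 against 11 arrays. Without the block the first cycle comparison called 0 members, so there the block changed no call.

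The scale of the deposited columns limits every statement on the level of these bright probe sets, and ratios within an array are free of its factor but not of a stretched bright end. The bright-end centring and the omission of 2 arrays were chosen after seeing the data.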
